A study of Mus musculus with 6 samples.

Results

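The 32 genes described here encode proteins that drive or carry out the cell cycle. They were chosen by name, as listed S phase and M phase genes, and all 32 were found among the 45320 gene identifiers of each table. For description they were divided into 2 G1 cyclins, 11 genes of S phase and its entry, and 19 genes of M phase and its preparation. The RNA was isolated from intact brown fat of C57BL/6 mice. The animals were 4 weeks old when a diet rich in sugar and fat began, and they ate it for 4 weeks before they were divided. The treated group went on with the diet plus RO5508887, an experimental small molecule that inhibits the protease BACE1, and comprises samples 17, 33 and 35. The untreated group went on with the diet alone and comprises samples 13, 14 and 15. Sample 33 and sample 35 carried the same 45320 values, with no difference even of sampling noise, and were counted as 1 library, treated 33/35, so 2 treated libraries were compared with 3 untreated libraries. Whether that library comes from sample 33 or sample 35 cannot be told. All groups share the diet, so no lean mouse enters these comparisons. The sources used here do not give the duration of treatment, the age at sampling, the sex or any pooling of animals.

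A cell that divides passes through G1, copies its DNA in S phase and separates the copies in M phase. D-type cyclins with their kinases inactivate the retinoblastoma protein, and E2F factors then switch on the genes for DNA replication. Later genes, which assemble and control the mitotic spindle, are switched on through the MuvB complex with B-MYB and FOXM1. Mature brown adipocytes are held to be out of the cycle, and dividing cells in brown fat belong mostly to precursor, endothelial and blood cell types. In RNA from whole tissue, fewer dividing cells and less RNA per dividing cell cannot be told apart.

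The 2 classes of genes differ in the promoter elements that these factors use, and 7 promoters are shown for that reason. Each is the 150 bases before the RefSeq transcript start, on build GRCm38.p6, in the direction of the gene. Capitals mark 3 elements found by letter matching on both strands, so that some appear as their reverse complement. These are the CHR, bound by MuvB complexes and searched as TTTGAA with its known variant TTCGAA, the CCAAT box, bound by NF-Y, and an E2F element. The E2F element was searched as TTCCCGC and in the forms spelled TTTGGCG and otherwise TTTCGCG. Adjacent matches of the E2F letters can overlap and then form 1 run of capitals. In Mcm5, the first capitals are the end of an E2F match that begins before the bases shown. The first 4 belong to M phase genes and the last 3 to S phase genes. These last 3 all carry E2F letters, which most of the S phase members searched did not.
Mki67, chr7:135716380-135716529, minus strand: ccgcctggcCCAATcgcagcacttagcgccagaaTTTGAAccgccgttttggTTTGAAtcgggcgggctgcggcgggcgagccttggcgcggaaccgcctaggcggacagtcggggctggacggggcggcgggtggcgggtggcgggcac
Cdc20, chr4:118437344-118437493, minus strand: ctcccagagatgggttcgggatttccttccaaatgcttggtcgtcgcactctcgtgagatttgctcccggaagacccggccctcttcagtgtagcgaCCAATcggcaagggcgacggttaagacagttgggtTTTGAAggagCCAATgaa
Cdk1, chr10:69352913-69353062, minus strand: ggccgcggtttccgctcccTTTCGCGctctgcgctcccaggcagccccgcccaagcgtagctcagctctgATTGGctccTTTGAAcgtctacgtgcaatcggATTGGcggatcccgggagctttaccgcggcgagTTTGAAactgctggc
Ccnb1, chr13:100786487-100786636, minus strand: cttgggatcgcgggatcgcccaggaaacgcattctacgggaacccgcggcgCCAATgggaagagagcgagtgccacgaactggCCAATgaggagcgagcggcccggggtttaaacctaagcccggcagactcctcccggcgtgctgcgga
Mcm5, chr8:75109359-75109508, plus strand: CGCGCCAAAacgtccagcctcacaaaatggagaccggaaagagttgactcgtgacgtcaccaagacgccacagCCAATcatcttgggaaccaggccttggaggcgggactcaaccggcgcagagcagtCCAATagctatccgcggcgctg
Mcm6, chr1:128359706-128359855, minus strand: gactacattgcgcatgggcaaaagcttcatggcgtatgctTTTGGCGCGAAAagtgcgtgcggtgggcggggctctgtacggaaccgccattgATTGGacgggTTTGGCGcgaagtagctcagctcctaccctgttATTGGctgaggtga
Rrm1, chr7:102441545-102441694, plus strand: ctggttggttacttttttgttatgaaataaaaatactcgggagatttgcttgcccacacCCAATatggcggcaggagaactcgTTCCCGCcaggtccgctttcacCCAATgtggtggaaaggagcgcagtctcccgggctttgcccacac

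Over all members with a RefSeq promoter entry, 24 genes with 25 entries, the 250 bases before the start were searched. The CHR letters occurred in 8 of 14 M phase promoters (57.1%), among them Mki67, Cdc20 and Cdk1, and in 2 of 11 S phase promoters (18.2%). They occurred in 17.1% of all 32851 mouse promoters of the same length. The E2F letters ran the other way, with 1 of 14 M phase promoters (7.14%), that of Cdk1, and 5 of 11 S phase promoters (45.5%), against 5.58% of all promoters. The CCAAT letters were common to both classes, in 13 of 14 M phase promoters (92.9%) and 9 of 11 S phase promoters (81.8%), against 33.8% of all promoters. CHR and CCAAT letters stood together in 57.1% of M phase promoters, 18.2% of S phase promoters and 6.02% of all promoters. Mcm7 has 2 of the S phase entries. Counted by gene, 2 of 10 S phase genes had CHR letters, 8 of 10 CCAAT letters and 4 of 10 E2F letters. Those with E2F letters were Mcm5, Mcm6, Mcm7 and Rrm1, and Ccne1, Mcm2, Mcm3, Pcna, Rrm2 and Tyms had none. A match of letters is a description and not a bound site.

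**Figure D1:**
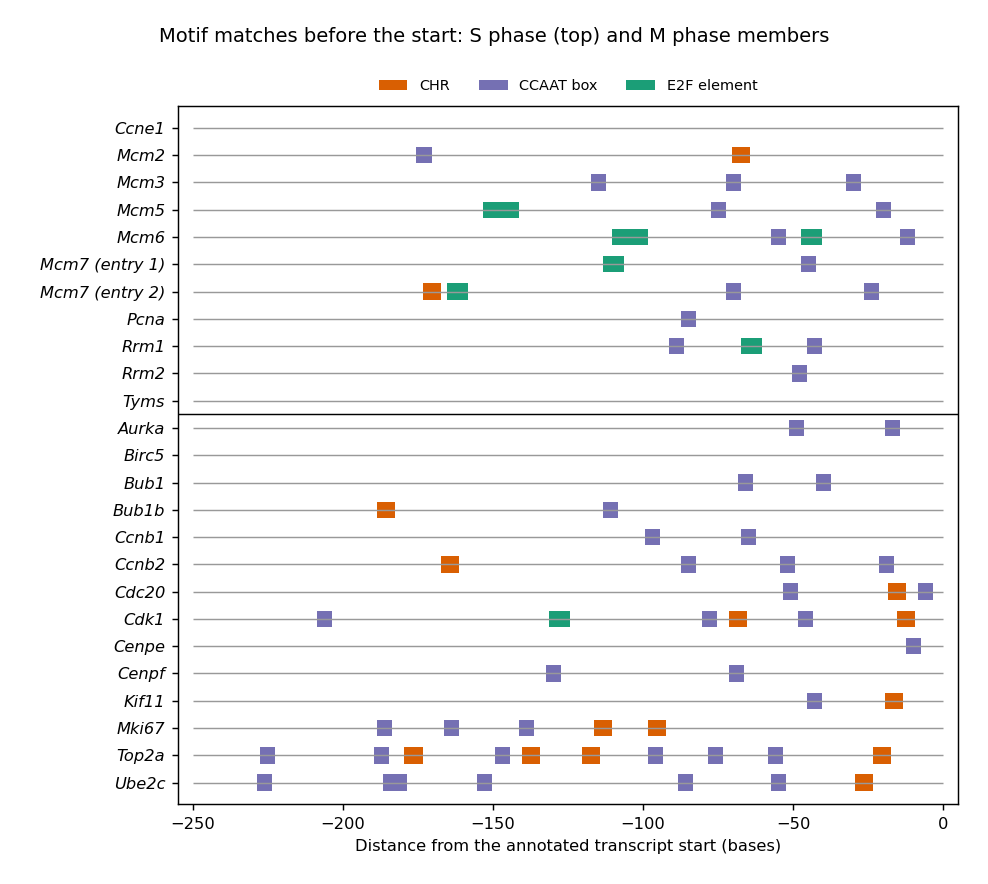
Positions of the 3 promoter elements in the 250 bases before the annotated start (horizontal axis, bases) for each member with a promoter entry, S phase genes above the line and M phase genes below it. Coloured blocks mark CHR, CCAAT and E2F letters; E2F letters lie mostly in the upper part (5 of 11 promoter entries) and CHR letters mostly in the lower part (8 of 14 promoters).

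Brown adipocyte markers were present in every library, with none of 11 at 0. Their summed level was 5179 and 6083 FPKM in the treated libraries 17 and 33/35, against 6579, 2863 and 7337 FPKM in untreated 13, 14 and 15. Ucp1 followed the order of this sum. It had 1120 and 1321 FPKM in treated 17 and 33/35, against 1837, 227 and 1912 FPKM in untreated 13, 14 and 15. Other markers departed from the sum, such as Fabp3, the only 1 of the 11 that was highest in untreated 14, at 995 FPKM. FPKM, the authors' unit, gives fragments per length of transcript and depth of sequencing, so levels can be compared between genes. Markers of skeletal muscle divided the libraries across the groups. Their sum over 19 genes was 13265 and 5797 FPKM in treated 17 and 33/35, against 159, 29865 and 145 FPKM in untreated 13, 14 and 15. Between 20876 and 21726 genes had a value above 0, and mitochondrial genes held 14.6% to 21.2% of the FPKM sum. The sequencing depth relative to untreated 13 was 1.01 in treated 17, 0.959 in treated 33/35, 0.810 in untreated 14 and 0.880 in untreated 15.

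Proliferation transcripts were present at low to moderate levels in all libraries. All 32 members had a value above 0 in each of the 5 libraries. The members that reached 1 FPKM numbered 15 in treated 17 and 24 in treated 33/35, against 19, 16 and 14 in untreated 13, 14 and 15. The median S phase member had 2.41 and 2.58 FPKM in treated 17 and 33/35, against 2.42, 2.72 and 2.11 FPKM in untreated 13, 14 and 15. This is close to the middle of all 21504 protein-coding genes, at a percentile of 52.9 to 54.5 in the 5 libraries. The median M phase member had 0.575 and 1.15 FPKM in treated 17 and 33/35, against 0.867, 0.593 and 0.514 FPKM in untreated 13, 14 and 15, at a percentile of 42.2 to 46.6. Of the S phase members, 9 of 11 reached 1 FPKM in every library, whereas 0 of 19 M phase members did and 7 of 19 stayed below 1 FPKM in all 5.

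**Figure D2:**
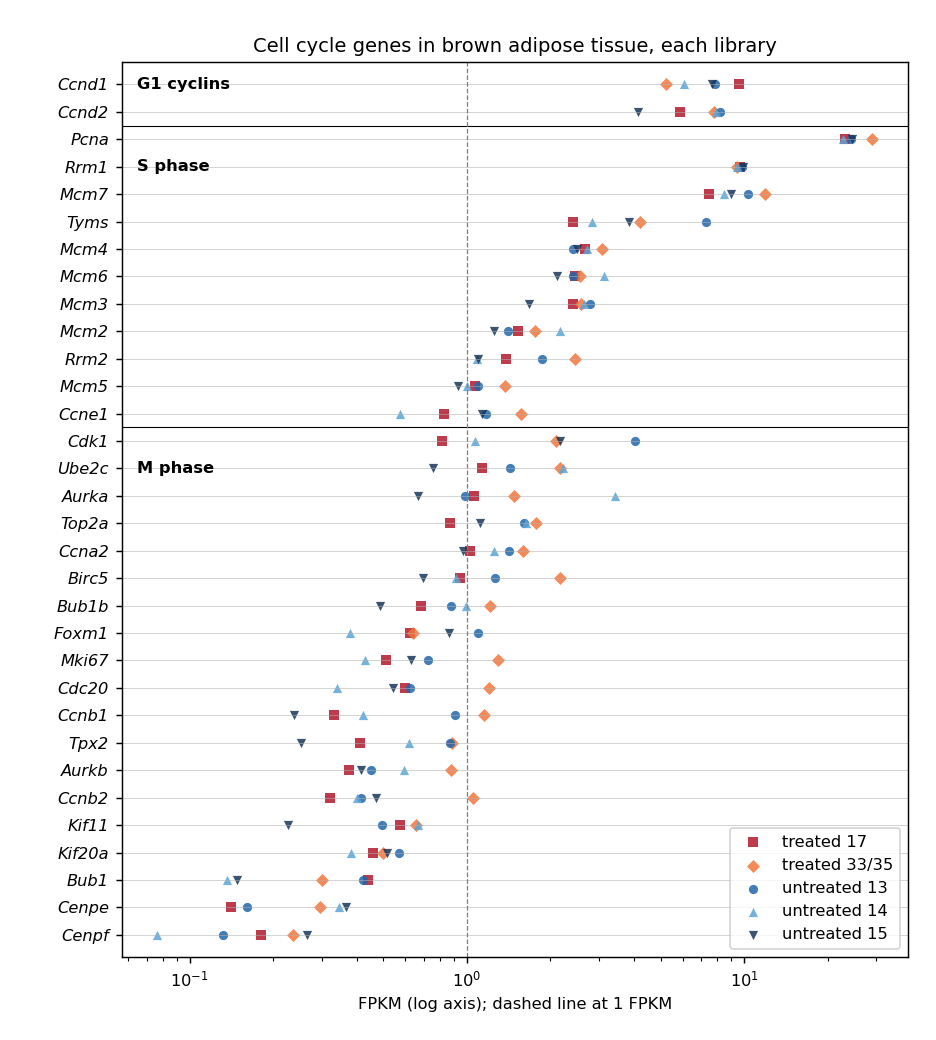
FPKM of each of the 32 members in the 5 libraries, treated and untreated, on a log axis, with members grouped as G1 cyclins, S phase and M phase. Pcna stands highest at 22.7 to 28.9 FPKM and Cenpf lowest at 0.0766 to 0.264 FPKM, and the values of the 2 groups overlap in every member.

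Among the G1 cyclins, Ccnd1 and Ccnd2, which carry growth factor signals to the cycle, reached 4 FPKM or more in all libraries. Ccnd1 had 9.59 FPKM in treated 17 and 5.22 FPKM in treated 33/35, against 7.82, 6.08 and 7.64 FPKM in untreated 13, 14 and 15. The treated libraries were therefore the highest and the lowest of the 5. Ccnd2 had 5.88 and 7.81 FPKM in treated 17 and 33/35, against 8.16, 7.88 and 4.16 FPKM in untreated 13, 14 and 15, with the treated values inside the untreated range. Exons of Ccnd1 overlap those of LTO1 on the opposite strand over 1100 bases. Use of strand in the counting was not stated, so reads of the 2 genes may not have been separated. Ccne1, the cyclin that starts S phase with CDK2, was far lower than the D-type cyclins, at 0.830 and 1.57 FPKM in treated 17 and 33/35, against 1.17, 0.574 and 1.13 FPKM in untreated 13, 14 and 15.

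The minichromosome maintenance genes Mcm2 to Mcm7 encode the 6 subunits of the replicative helicase, which is loaded on DNA as 1 complex. Mcm2 to Mcm6 lay between 0.932 and 3.13 FPKM in all libraries. Mcm4 was among the steadiest, with 2.67 and 3.07 FPKM in treated 17 and 33/35, against 2.42, 2.72 and 2.50 FPKM in untreated 13, 14 and 15. Mcm5, whose promoter carries the E2F letters shown above, had 1.07 and 1.37 FPKM in treated 17 and 33/35, against 1.09, 0.998 and 0.932 FPKM in untreated 13, 14 and 15. Mcm6 had 2.45 and 2.56 FPKM in treated 17 and 33/35, against 2.42, 3.13 and 2.11 FPKM in untreated 13, 14 and 15. For each of these 3 helicase genes the values of the 2 groups overlapped. Mcm2 ranged from 1.25 to 2.17 FPKM and Mcm3 from 1.68 to 2.78 FPKM over the 5 libraries.

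Mcm7 stood apart from the other subunits of its complex. It had 7.48 and 11.9 FPKM in treated 17 and 33/35, against 10.3, 8.46 and 8.94 FPKM in untreated 13, 14 and 15. These levels were 3.10 and 4.65 times the median of Mcm2 to Mcm6 in the treated libraries 17 and 33/35, against 4.27, 3.19 and 5.34 times in untreated 13, 14 and 15. The excess was present in every library and was not ordered by treatment. Exons of Mcm7 overlap those of Ap4m1 over 321 bases and Cops6 over 64 bases on the opposite strand, and the gene holds the microRNAs Mir25 and Mir93. Cops6 measured 70.7 to 86.7 FPKM, and the part of these neighbours in the level of Mcm7 was not tested.

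Pcna, the sliding clamp that tethers DNA polymerase, was the highest member. It had 23.1 and 28.9 FPKM in treated 17 and 33/35, against 24.3, 22.7 and 24.5 FPKM in untreated 13, 14 and 15. Reads of Pcna may be shared with 2 annotated pseudogenes. Rrm1, the large subunit of ribonucleotide reductase, was the steadiest member and varied by a factor of 1.05 over the 5 libraries. It had 9.63 and 9.42 FPKM in treated 17 and 33/35, against 9.84, 9.44 and 9.91 FPKM in untreated 13, 14 and 15. Rrm2, the small subunit that is made in S phase, was lower and more variable. It had 1.39 and 2.46 FPKM in treated 17 and 33/35, against 1.87, 1.09 and 1.10 FPKM in untreated 13, 14 and 15. Rrm1 thus exceeded its partner 6.95 and 3.84 times in treated 17 and 33/35, against 5.26, 8.68 and 9.03 times in untreated 13, 14 and 15. Rrm2b, the small subunit used outside S phase, had 12.6 and 10.9 FPKM in treated 17 and 33/35, against 9.88, 13.4 and 9.81 FPKM in untreated 13, 14 and 15. It was thus nearer to Rrm1 in level than Rrm2 was, in each of the 5 libraries.

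Tyms, thymidylate synthase, which makes the thymidine nucleotide, varied most among S phase members. It had 2.41 and 4.2 FPKM in treated 17 and 33/35, against 7.28, 2.82 and 3.83 FPKM in untreated 13, 14 and 15. Cdk1, the kinase that drives entry into mitosis, had the same highest and lowest library, with 0.813 and 2.09 FPKM in treated 17 and 33/35, against 4.05, 1.07 and 2.16 FPKM in untreated 13, 14 and 15. The high value of both genes thus lay in untreated 13. B cell markers were also highest there in 8 of 8 genes, with sums of 42.3 and 52.8 FPKM in treated 17 and 33/35, against 87.0, 73.2 and 24.4 FPKM in untreated 13, 14 and 15. Erythroid markers were highest there in 7 of 10 genes, with sums of 1362 and 1972 FPKM in treated 17 and 33/35, against 3730, 1189 and 1411 FPKM in untreated 13, 14 and 15. Haemoglobin genes made most of the erythroid sums, with Hbb-bs alone at 1180 FPKM in untreated 13. Tfrc went the other way and was lowest in untreated 13, at 16.2 FPKM, and Epor and Klf1 were highest in treated 33/35. No B cell marker was at 0 in any library, but Ighm made most of the B cell sums. Ighm had 40.2 and 50.8 FPKM in treated 17 and 33/35, against 82.8, 71.8 and 22.7 FPKM in untreated 13, 14 and 15. The median B cell marker had 0.334 and 0.243 FPKM in treated 17 and 33/35, against 0.686, 0.217 and 0.211 FPKM in untreated 13, 14 and 15. The part of these cells in the values of Tyms and Cdk1 was not tested, and reads of Tyms may be shared with a pseudogene.

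The B-type cyclins were lower than Cdk1, their catalytic partner, in all 5 libraries. Ccna2, needed in S phase and early mitosis, had 1.03 and 1.60 FPKM in treated 17 and 33/35, against 1.42, 1.25 and 0.970 FPKM in untreated 13, 14 and 15. Exons of Ccna2 overlap Exosc9 over 510 bases on the opposite strand, and Exosc9 measured 11.04 to 14.2 FPKM. Ccnb1, the main mitotic cyclin, had 0.333 and 1.15 FPKM in treated 17 and 33/35, against 0.906, 0.421 and 0.238 FPKM in untreated 13, 14 and 15. Ccnb2 had 0.321 and 1.05 FPKM in treated 17 and 33/35, against 0.415, 0.402 and 0.471 FPKM in untreated 13, 14 and 15. All 3 cyclins were highest in treated 33/35, and Ccnb2 was also lowest in the other treated library. Ccnb1 and Ccnb2 each have an annotated pseudogene with which reads may be shared. Foxm1, the transcription factor for genes of mitosis, had 0.624 and 0.637 FPKM in treated 17 and 33/35, against 1.10, 0.378 and 0.859 FPKM in untreated 13, 14 and 15, so the treated values lay inside the untreated range.

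Mki67, whose protein coats mitotic chromosomes and is the usual stain for dividing cells (ENSMUSG00000031004, chromosome 7, 135689784 to 135716361, GRCm38), had 0.511 and 1.29 FPKM in treated 17 and 33/35, against 0.725, 0.428 and 0.629 FPKM in untreated 13, 14 and 15. Its percentile among protein-coding genes was 40.2 to 47.4. Top2a, the topoisomerase that untangles replicated chromosomes, had 0.871 and 1.78 FPKM in treated 17 and 33/35, against 1.61, 1.63 and 1.11 FPKM in untreated 13, 14 and 15. Both genes were highest in treated 33/35.

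Birc5 (survivin) and Aurkb belong to the chromosomal passenger complex, which corrects the attachment of chromosomes to the spindle. Birc5 had 0.946 and 2.17 FPKM in treated 17 and 33/35, against 1.26, 0.914 and 0.692 FPKM in untreated 13, 14 and 15. Aurkb had 0.377 and 0.879 FPKM in treated 17 and 33/35, against 0.453, 0.593 and 0.415 FPKM in untreated 13, 14 and 15. In both, treated 33/35 was the highest of the 5 libraries, and treated 17 lay within or below the untreated values. Bub1 and Bub1b, kinases of the spindle checkpoint, ranged from 0.136 to 0.439 FPKM and from 0.486 to 1.21 FPKM. Cdc20, which activates the anaphase-promoting complex once the checkpoint is satisfied, had 0.598 and 1.2 FPKM in treated 17 and 33/35, against 0.625, 0.339 and 0.540 FPKM in untreated 13, 14 and 15. Ube2c, the ubiquitin-conjugating enzyme of that complex, had 1.13 and 2.16 FPKM in treated 17 and 33/35, against 1.43, 2.22 and 0.756 FPKM in untreated 13, 14 and 15. Its exons overlap the muscle gene Tnnc2 over 592 bases on the opposite strand, and Tnnc2 had 1388 and 611 FPKM in treated 17 and 33/35, against 3.10, 3061 and 4.22 FPKM in untreated 13, 14 and 15. Ube2c was highest where Tnnc2 was highest, in untreated 14, and the part of shared reads was not tested.

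Aurka and Tpx2 build the spindle, TPX2 being the protein that activates the kinase Aurora A. Aurka had 1.06 and 1.48 FPKM in treated 17 and 33/35, against 0.983, 3.42 and 0.664 FPKM in untreated 13, 14 and 15. Its high value in untreated 14 was not shared by Tpx2, which had 0.413 and 0.883 FPKM in treated 17 and 33/35, against 0.867, 0.616 and 0.253 FPKM in untreated 13, 14 and 15. Aurka was 5.15 times higher in its highest library than in its lowest, the widest range among the 32 members. Markers of satellite cells and myoblasts, the precursors of muscle, were highest in untreated 14 in 6 of 7 genes. Their sums were 9.46 and 6.53 FPKM in treated 17 and 33/35, against 5.53, 50.4 and 2.74 FPKM in untreated 13, 14 and 15, and Pax7, Myf5, Myod1 and Myog were each at 0 in some libraries. Vcam1 alone made 5.46 and 2.65 FPKM of the sums in untreated 13 and 15. It had 3.82 and 3.03 FPKM in treated 17 and 33/35 and 4.07 FPKM in untreated 14. The part of muscle precursors in the value of Aurka was not tested. Kif11, the motor that pushes spindle poles apart, ranged from 0.227 to 0.665 FPKM, and Kif20a, a motor of cytokinesis, from 0.382 to 0.571 FPKM. Exons of Kif20a overlap Cdc23 over 1271 bases on the opposite strand, and Cdc23 measured 12.0 to 17.4 FPKM. Cenpe and Cenpf, proteins of the kinetochore, were the 2 lowest members by mean level, at 0.141 to 0.368 FPKM and 0.0766 to 0.264 FPKM.

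S phase and M phase genes were set side by side in each library on the log2(FPKM + 0.5) scale. The median S phase member exceeded the median M phase member by 1.44 and 0.90 in treated 17 and 33/35, against 1.10, 1.56 and 1.36 in untreated 13, 14 and 15. In FPKM, the ratio of the 2 medians was 4.19 and 2.24 in treated 17 and 33/35, against 2.79, 4.58 and 4.10 in untreated 13, 14 and 15. The S phase median was thus higher in all 5 libraries, and the distance was smallest in treated 33/35 and next smallest in untreated 13. The 2 classes also differed in how far they varied. The highest library exceeded the lowest 1.59-fold for the median S phase member and 3.02-fold for the median M phase member. A range of over 2-fold was found in 3 of 11 S phase members and 17 of 19 M phase members. For comparison, the median range was 2.56-fold over 6828 genes with a mean of 0.1 to 3 FPKM and no value of 0, and 1.69-fold over 13232 genes that averaged 1 FPKM or more with no value of 0.

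**Figure D3:**
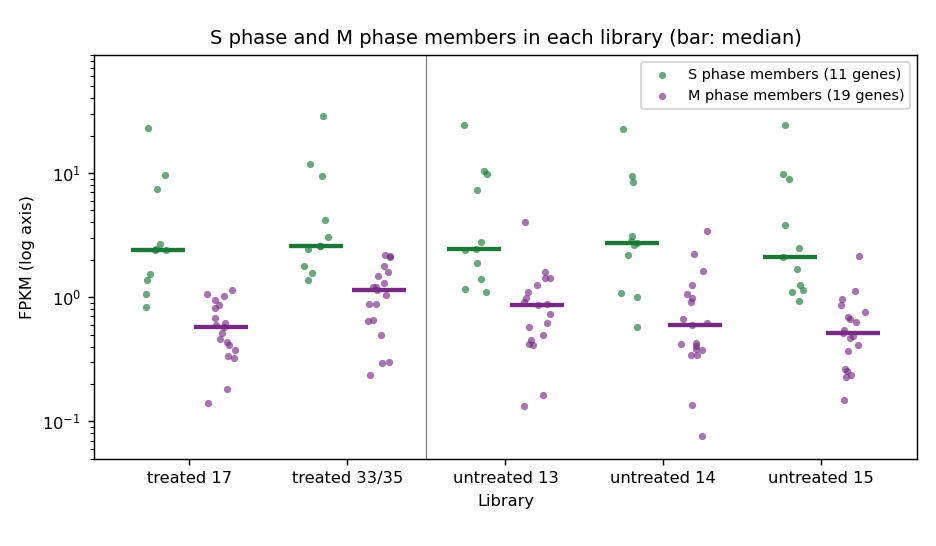
FPKM (vertical log axis) of the 11 S phase members and the 19 M phase members in each library, with 1 point per gene, bars at the medians and treated libraries to the left of untreated ones. The M phase medians run from 0.514 to 1.15 FPKM and the S phase medians from 2.11 to 2.72 FPKM, and they lie closest in treated 33/35 (a ratio of 2.24).

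The members differed in a common direction between the 2 treated libraries. Treated 33/35 exceeded treated 17 in 18 of 19 M phase members, with a median log2 difference of 0.60, and in 10 of 11 S phase members, with a median of 0.26. The same was true of 59.4% of all 13527 genes tested, with a median of 0.06. Bub1 was the exception in M phase and Rrm1 in S phase. Treated 33/35 was the highest of the 5 libraries for 10 of 19 M phase members and 6 of 11 S phase members, against 21.4% of all 18667 genes that averaged 0.1 FPKM or more. The same library was highest for 41 of 63 other M phase genes (65.1%) and 20 of 42 other S phase genes (47.6%) above that level. Preadipocyte and fibroblast markers were highest in treated 33/35 in 8 of 15 genes, with sums of 688 and 976 FPKM in treated 17 and 33/35, against 814, 922 and 411 FPKM in untreated 13, 14 and 15, and no marker at 0. Macrophage markers were highest there in 4 of 12 genes and in untreated 14 in 7. Their sums were 146 and 190 FPKM in treated 17 and 33/35, against 172, 198 and 126 FPKM in untreated 13, 14 and 15. Endothelial markers were highest in treated 33/35 in 3 of 11 genes. They summed to 264 and 310 FPKM in treated 17 and 33/35, against 279, 228 and 266 FPKM in untreated 13, 14 and 15. Of these sums, Cldn5 held 21.4 and 78.1 FPKM in treated 17 and 33/35, against 31.0, 21.5 and 16.3 FPKM in untreated 13, 14 and 15. The part of these cells in the higher values was not tested.

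**Figure D4:**
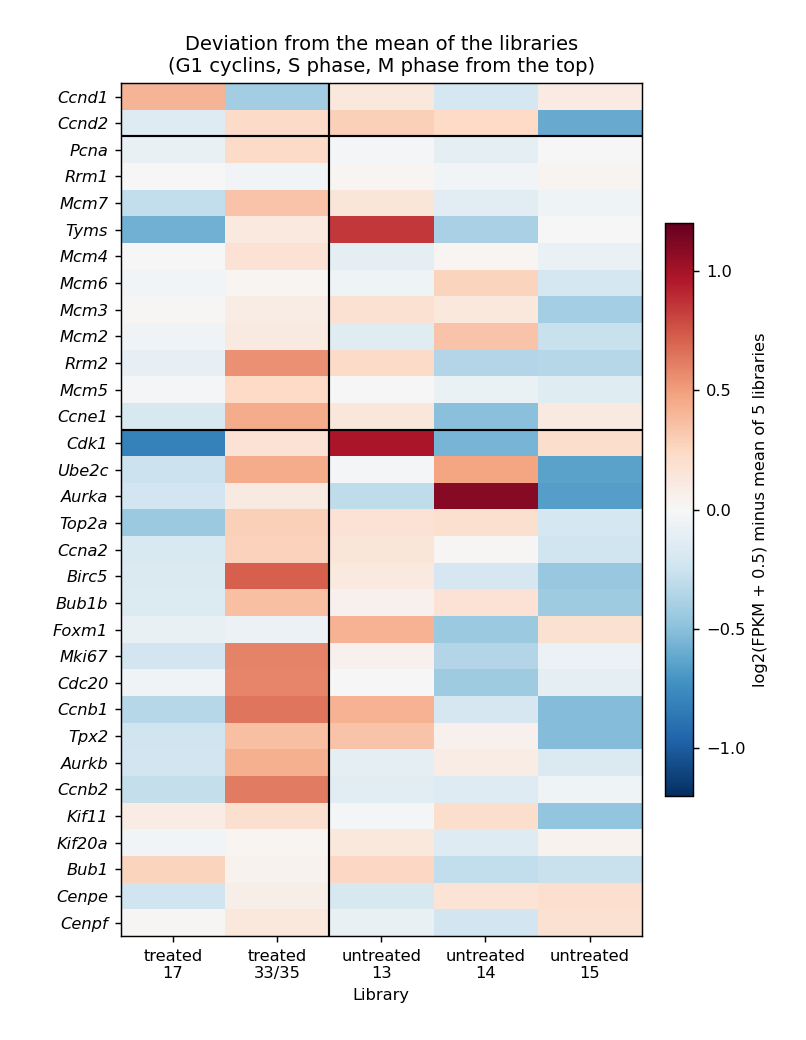
Deviation of each member from its own mean over the 5 libraries, on the log2(FPKM + 0.5) scale, with treated libraries left of untreated ones and red for values above the mean. Treated 33/35 is above the mean in 18 of 19 M phase members and treated 17 in 3 of 19; Cdk1 and Tyms stand out in untreated 13 and Aurka in untreated 14.

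The comparison of treated with untreated libraries asks whether the inhibitor changed these genes on the same diet. No member passed the test. Limma was run on the 13527 genes that averaged 1 FPKM or more, and 19 of the 32 members were among them (2 G1 cyclins, 11 S phase and 6 M phase members). No member was higher or lower at an adjusted p under 0.05, and 0 had an unadjusted p under 0.05, against 125 of all genes. Over all genes, 0.0296% were called higher and 0.0148% lower. No member had treated and untreated values that did not overlap, against 5.5% of all genes with every treated library higher and 3.18% with every treated library lower. With all genes that averaged 0.1 FPKM or more, 18667 in all, the 32 members were all tested, again with 0 called and 0 that did not overlap. The shares over those genes were 0.0268% called higher and 0.0107% called lower, with 6.21% and 3.8% not overlapping. A difference that misses the threshold with 2 and 3 libraries does not show that levels were alike.

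No fold change was large enough beside its error to pass the test. The median log2 fold change, treated over untreated, was 0.09 over the 11 S phase members, with 8 above 0 and 3 below, against 0.06 over all genes tested. It was -0.02 over the 6 M phase members tested, with 3 above 0 and 3 below. At the lower filter it was 0.15 over all 19, with 13 above 0 and 6 below, against 0.05 over all genes. Of all genes, 64.3% lay above 0 at the filter of 1 FPKM and 61.3% at the lower filter. Birc5 averaged 1.56 ± 0.866 FPKM in treated libraries (SD, n = 2) and 0.957 ± 0.288 FPKM in untreated libraries (SD, n = 3), a log2 fold change of 0.45 with a standard error of 0.38 and a limma adjusted p of 1. Rrm2 averaged 1.92 ± 0.757 FPKM in treated and 1.35 ± 0.449 FPKM in untreated libraries, a log2 fold change of 0.38 with a standard error of 0.34. In both genes the higher value lay in treated 33/35, and treated 17 lay within the untreated values. With 1 library left out at a time, the fold change of Rrm2 ran from 0.053 without treated 33/35 to 0.70 without treated 17. That of Birc5 ran from 0.32 to 0.89, but without treated 33/35 Birc5 averaged under 1 FPKM and was not fitted. The range of Birc5 therefore does not show how far its fold change rests on treated 33/35. Cdk1 averaged 1.45 ± 0.902 FPKM in treated and 2.43 ± 1.51 FPKM in untreated libraries, a log2 fold change of -0.53 with a standard error of 0.57. Tyms averaged 3.30 ± 1.26 FPKM in treated and 4.64 ± 2.34 FPKM in untreated libraries, a log2 fold change of -0.38 with a standard error of 0.45. In both of these genes untreated 13 was the highest library and treated 17 the lowest. The log2 fold change of Cdk1 was -0.043 without treated 17 and -0.15 without untreated 13, but -1.02 without treated 33/35 and -0.92 without untreated 14. That of Tyms was -0.037 without treated 17 and -0.037 without untreated 13, but -0.73 without treated 33/35 and -0.65 without untreated 14. Rrm1 gave the tightest comparison, with 9.53 ± 0.151 FPKM in treated and 9.73 ± 0.253 FPKM in untreated libraries, a log2 fold change of -0.03 with a standard error of 0.13.

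The number of members that stood apart depended on single libraries. Without treated 17, 9 of the 19 members tested were higher in treated 33/35 than in every untreated library, against 23.0% of all genes. Another 2 were lower (Ccnd1 and Rrm1), against 8.97%. The 9 were Ccne1, Mcm4, Mcm5, Mcm7, Pcna, Rrm2, Top2a, Ccna2 and Birc5. Of these, Ccne1 and Birc5 averaged 0.960 and 0.957 FPKM in untreated libraries. They reached the filter of 1 FPKM only where treated 33/35 was included, so their place among the 9 is not independent of that filter. Without treated 33/35, 1 of 17 members tested was higher in treated 17 (Ccnd1), against 9.26% of all genes, and 4 were lower (Mcm7, Tyms, Top2a and Cdk1), against 10.3%. Mcm7 and Top2a thus lay above all untreated libraries in treated 33/35 and below all of them in treated 17. Ccnd1 lay the other way round. Ccnb2 and Aurkb, below the filter of 1 FPKM, lay as Mcm7 and Top2a did. Without untreated 13, 3 of 19 members were higher (Mcm5, Rrm2 and Birc5), against 12.0% of all genes, and 0 were lower, against 5.26%. The place of Birc5 among these 3 is likewise not independent of the filter. Without untreated 14, 4 of 19 were higher (Mcm2, Mcm4, Mcm6 and Aurka), against 24.5% of all genes, and 2 were lower (Rrm1 and Cdk1), against 21.1%. Without untreated 15, 0 of 19 were higher, against 9.8% of all genes, and 2 were lower (Ccnd2 and Mcm3), against 8.37%. Under quantile normalization, 0 of 19 were higher, against 2.03% of all genes, and 2 were lower (Mcm6 and Rrm1), against 10.7%. That scaling left 42.0% of all genes with a fold change above 0, against 64.3% on the values as deposited. With values scaled without mitochondrial and muscle genes, 1 of 19 was higher (Mcm5), against 7.64% of all genes, and 0 were lower, against 2.48%.

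**Figure D5:**
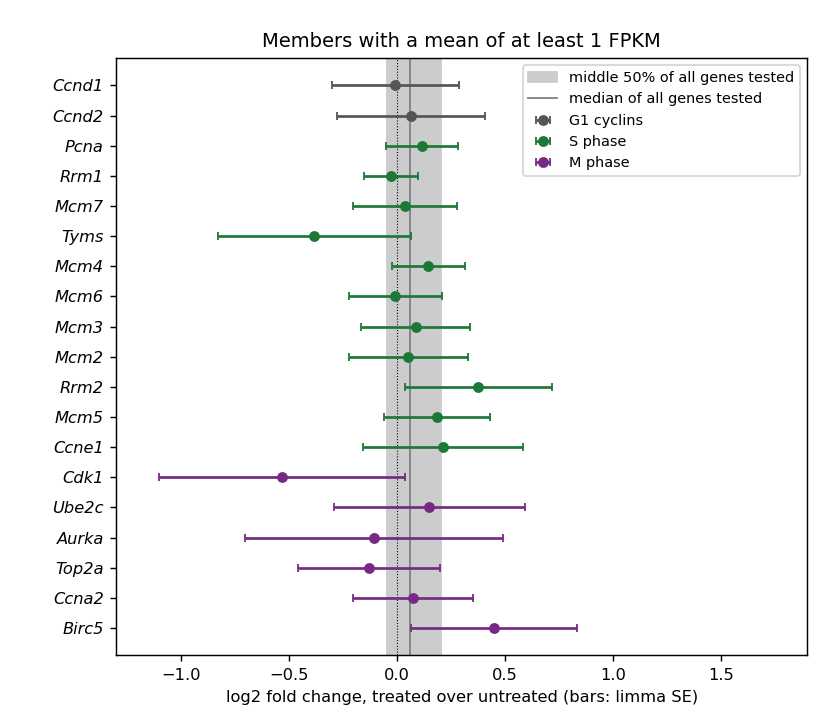
Log2 fold change, treated over untreated, with its limma standard error for the 19 members that averaged 1 FPKM or more. The grey band and line give the middle 50% and the median (0.06) of all 13527 genes tested; the estimates run from -0.53 for Cdk1 to 0.45 for Birc5.

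Other genes of the same pathways gave no call in either direction. Of 30 other S phase genes tested, 0 were called. Their median log2 fold change was 0.13, with 26 values above 0, against a median of 0.06 and 64.3% above 0 over all genes tested. Pold1, the catalytic subunit of DNA polymerase delta, had the smallest p of that list, with 3.60 and 3.59 FPKM in treated 17 and 33/35, against 5.33, 5.05 and 4.62 FPKM in untreated 13, 14 and 15. Its groups did not overlap, with a log2 fold change of -0.42, a standard error of 0.15 and a limma adjusted p of 1. Orc6, a subunit of the origin recognition complex, had a log2 fold change of 0.34 with a standard error of 0.24. Of 20 other M phase genes tested, 0 were called, with a median of 0.09 and 15 values above 0, against the same 64.3%. Tacc3, a protein of spindle microtubules, had a log2 fold change of 0.34 without overlap of the groups, and Cdca3 had one of 0.46 with overlap. Among the genes tested, 1 of each list was higher and 1 lower without overlap, against 5.5% and 3.18% of all genes. At the lower filter of 0.1 FPKM, 0 were called among 42 other S phase and 63 other M phase genes. Fold changes lay above 0 in 34 of the 42 and 46 of the 63, against 61.3% of all genes at that filter. Without overlap, 3 S phase and 9 M phase genes were higher, and 1 gene of each list was lower. Over all genes at that filter, 6.21% were higher and 3.8% lower without overlap.

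Upstream of these genes, 13 G1 kinases and E2F activators were tested and 0 were called. Their median log2 fold change was 0.16, with 11 values above 0, against a median of 0.06 and 64.3% above 0 over all genes tested. Myc, a transcription factor that promotes growth and entry into the cycle, had 6.62 and 5.68 FPKM in treated 17 and 33/35, against 3.46, 4.13 and 4.21 FPKM in untreated 13, 14 and 15. Its groups did not overlap, with a log2 fold change of 0.58, a standard error of 0.17 and a limma adjusted p of 1. Tfdp1, the partner of E2F factors, had a log2 fold change of -0.26. Of 27 CDK inhibitors, RB family and quiescence genes tested, 0 were called. Their median was 0.04, with 17 values above 0, against the same 64.3% of all genes. Btg2, an antiproliferative gene, had 14.4 and 28.1 FPKM in treated 17 and 33/35, against 9.73, 13.1 and 8.29 FPKM in untreated 13, 14 and 15, without overlap. Its log2 fold change was 0.95 with a standard error of 0.36 and a limma adjusted p of 1. Tob1, a relative of Btg2, had a log2 fold change of 0.40 with overlapping groups. Without overlap, 1 of the 13 genes was higher and 0 lower, and of the 27 genes 1 was higher and 1 lower. Over all genes tested, 5.5% were higher and 3.18% lower without overlap.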

How the data were processed

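Total RNA from whole brown adipose tissue was extracted with Trizol and sequenced on Illumina instruments, per the labels' protocols. The authors deposited 1 table per sample with FPKM values for 45320 Ensembl identifiers, per the file headers. Per the submitters' processing notes, CASAVA 1.7 and GRCm38 were used. The aligner, the quantification program and the use of strand are not given in the sources used here. Symbols and coordinates came from GENCODE M21, which held 44481 identifiers, and promoters from RefSeq on GRCm38.p6. Read numbers were unknown, so no counting interval is given, and depth is relative, from steps between low values. Labels do not say whether samples came from separate animals, so p-values cover only the spread among these libraries, which could be technical.

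Groups were compared with limma 3.58.1 in R 4.3.3 on log2(FPKM + 0.5), with a variance trend (residual df 3), over genes that averaged 1 FPKM or more, and a lower filter of 0.1 FPKM was used beside it. Tests were two-sided, and the threshold was a Benjamini-Hochberg adjusted p of 0.05. Fold changes are treated minus untreated means on that scale and understate the change of low genes. Counting and plotting used Python 3.11.15, numpy 2.4.6, pandas 2.3.3 and matplotlib 3.10.9. Alternative fits changed the scaling, the pseudocount, the variance trend, the filter, the sample weights, a muscle covariate, the identical tables counted separately and each library left out.

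The members and lists were chosen with earlier results of these data known. All 32 members are named, and of each other list the genes past the threshold and the 2 with the smallest p. Rrm2b, Cdkn2c, Pttg1, Gmnn, Cdkn2a, the genes that overlap members and the marker lists described were chosen after their values were seen.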

Additional observations from a re-analysis of the deposited data

How the results depend on the processing

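No paired analysis was possible because the 2 groups share no sample numbers. Over 10 alternatives and 5 fits without 1 library, 0 of 19 members tested passed the threshold, with a smallest adjusted p of 0.145 (limma). The sign of small fold changes depended on the setting, with 17 of 19 members reversed in at least 1 alternative and 15 in one that kept every library; the cause was not tested. Quantile normalization moved the median of all genes from 0.06 to -0.04, the S phase median to -0.13 and the M phase median to -0.39 and gave 2 of 19 members lower without overlap, against 10.7% of all genes; under it Ccnd2 was -0.073, Ccne1 -0.23, Mcm2 -0.15, Mcm3 -0.084, Mcm4 -0.033, Mcm5 -0.16, Mcm7 -0.071, Ccna2 -0.30, Birc5 -0.024 and Ube2c -0.15. Scaling without mitochondrial and muscle genes gave 1 of 19 members higher without overlap, against 7.64% of all genes, with Ccnd1 at 0.0061 and Mcm6 at 0.0012. With a muscle covariate Ccnd1 was 0.10, Ccnd2 -0.11, Mcm2 -0.19, Mcm3 -0.021, Tyms 0.00076, Cdk1 0.017 and Ube2c -0.18. With sample weights Mcm6 was 0.089, Mcm7 -0.050 and Aurka 0.33, and with the identical tables counted separately Mcm6 was 0.00030.

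The S phase median minus the M phase median stayed above 0 in all 5 libraries under every setting run. At a pseudocount of 0.1 it was 1.89 and 1.10 in treated 17 and 33/35, against 1.38, 2.02 and 1.85 in untreated 13, 14 and 15. At a pseudocount of 1 it was 1.11 and 0.74 in treated 17 and 33/35, against 0.87, 1.22 and 1.04 in untreated 13, 14 and 15. Over members with a mean of at least 1 FPKM it was 0.97 and 0.34 in treated 17 and 33/35, against 0.60, 0.74 and 0.94 in untreated 13, 14 and 15. Without 1 library at a time, members higher without overlap numbered 0 to 9, against 9.26% to 24.5% of all genes, and members lower 0 to 4, against 5.26% to 21.1%. The S phase median then ran from -0.02 to 0.23 and the M phase median from -0.28 to 0.27. Single members ran from -0.46 to 0.42 (Aurka), -0.16 to 0.30 (Ccna2), -0.42 to 0.40 (Ccnd1), -0.23 to 0.25 (Ccnd2), -1.02 to -0.043 (Cdk1), -0.73 to -0.037 (Tyms), -0.069 to 0.24 (Mcm2), -0.10 to 0.20 (Mcm3), -0.12 to 0.12 (Mcm6), -0.28 to 0.35 (Mcm7), -0.044 to 0.28 (Pcna), -0.50 to 0.24 (Top2a) and -0.20 to 0.50 (Ube2c). Members below 1 FPKM rest on few reads, whose number was unknown.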

Other observations

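Replication-dependent histone genes, which are transcribed in S phase, had lower means in treated libraries in 20 of 24 genes tested, against 64.3% of all genes with a higher mean. Their median log2 fold change was -0.20, with 0 called by limma, 0 at an unadjusted p under 0.05, 1 higher and 4 lower without overlap, against 5.5% of all genes higher and 3.18% lower without overlap. Hist1h1e, a linker histone, had 4.37 and 2.47 FPKM in treated 17 and 33/35, against 5.78, 7.97 and 4.61 FPKM in untreated 13, 14 and 15, a log2 fold change of -0.77 with a standard error of 0.33. Hist1h1d had 1.40 and 1.10 FPKM in treated 17 and 33/35, against 1.91, 2.01 and 1.93 FPKM in untreated 13, 14 and 15, a log2 fold change of -0.49 with a standard error of 0.21. The sum over 51 histone genes was 266 and 272 FPKM in treated 17 and 33/35, against 370 (untreated 13), 337 (untreated 14) and 282 FPKM (untreated 15). Hist1h1c and Hist1h2bc had the highest values of the 51 in every library. Hist1h1c had 69.5 and 57.8 FPKM in treated 17 and 33/35, against 87.2, 91.98 and 72.96 FPKM in untreated 13, 14 and 15. Hist1h2bc had 78.3 and 76.4 FPKM in treated 17 and 33/35, against 107.9, 98.3 and 82.6 FPKM in untreated 13, 14 and 15. The median histone gene had 0.632 and 0.594 FPKM in treated 17 and 33/35, against 0.917, 0.675 and 0.683 FPKM in untreated 13, 14 and 15. Of the 51, 25 were highest in untreated 13, the library with the highest erythroid and B cell marker sums. Haemoglobin genes and Ighm made most of those sums, and the part of those cells was not tested.

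A few cell cycle genes outside the 32, chosen after their values were seen, had higher levels than most members. Cdkn2c, the inhibitor p18 of CDK4 and CDK6, had 83.4 and 98.1 FPKM in treated 17 and 33/35, against 97.4, 28.5 and 74.5 FPKM in untreated 13, 14 and 15. Gmnn, geminin, which blocks a second round of replication, had 25.99 and 27.99 FPKM in treated 17 and 33/35, against 27.1, 8.12 and 25.6 FPKM in untreated 13, 14 and 15. Both were lowest in untreated 14, the library with the lowest brown adipocyte marker sum and the highest muscle marker sum. Pttg1, securin, which inhibits the protease separase until anaphase, had 73.8 and 79.0 FPKM in treated 17 and 33/35, against 71.5, 78.4 and 68.5 FPKM in untreated 13, 14 and 15. That is above every one of the 32 members in each library. Cdkn2a, the inhibitor that marks senescent cells, was listed at 0 in all 5 libraries.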
